A study of Homo sapiens with 24 samples.

Results

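The transcripts followed here are those of 9 genes of the TGF-beta pathway in the HB2 line, immortalized epithelial cells of the human breast, after siRNA against the long noncoding RNA GNG12-AS1. The genes were the ligands TGFB1 and TGFB2, the receptors TGFBR1 and TGFBR2, the signal carriers SMAD2 and SMAD3, the inhibitors SMAD7 and SKIL, and the induced gene TGFBI. They were chosen by symbol, with earlier results of these data known. Every array probe annotated to them was taken, which gave 15 of the 47228 probes and 9 of 20045 named genes. Of these probes, 10 probes of 7 genes passed the detection filter and were tested, among 19395 probes of the whole array that passed it.

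The 4 groups were HB2 cells given a control siRNA and cells in which GNG12-AS1, transcribed antisense to GNG12, was targeted in exon 1, in exon 7 or in exon 9. All groups received 50 nM siRNA with the same lipid reagent, and RNA was collected after 48 h from 6 replicates per group, giving 24 Illumina bead arrays. Each replicate number carries the same experiment number in the titles of all groups. The titles give 1 siRNA code for each exon, so that the effect of its sequence on other transcripts and the effect of losing the target cannot be told apart, and the level of GNG12-AS1 itself was not analysed here. In bulk RNA, fewer cells of a type and less RNA per cell cannot be told apart.

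TGF-beta ligands bind the receptor TGFBR2, which recruits and activates TGFBR1. Active TGFBR1 phosphorylates SMAD2 and SMAD3, which join SMAD4, enter the nucleus and switch genes on or off together with other factors. SMAD7, which blocks the receptor, and SKIL, which represses SMAD targets, are themselves induced by the pathway and dampen it. In mammary epithelium the pathway is known for restraining growth and, in other settings, for favouring a mesenchymal change of shape. TGFBI, an extracellular matrix protein, is named for its induction by TGF-beta.

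The SMAD3 and SMAD4 proteins bind the short motif CAGAC, which the opposite strand shows as GTCTG, and an 8-base palindrome, GTCTAGAC, is their best-known site. The 250 bases before the start site are printed for TGFBI, the member that passed the test against control, and for SKIL and SMAD7, both induced by the pathway in other cells. The sequences are those of RefSeq on build GRCh38.p14, written 5′ to 3′ on the gene's own strand, with CAGAC or GTCTG in capitals. For SMAD7 the first of 3 listed start sites is shown.
TGFBI, chr5:136028738-136028987, plus strand: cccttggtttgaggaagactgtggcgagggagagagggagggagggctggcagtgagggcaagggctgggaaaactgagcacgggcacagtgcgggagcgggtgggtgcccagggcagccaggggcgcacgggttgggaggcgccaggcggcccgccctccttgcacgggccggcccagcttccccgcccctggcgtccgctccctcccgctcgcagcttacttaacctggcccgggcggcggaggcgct
SKIL, chr3:170357465-170357714, plus strand: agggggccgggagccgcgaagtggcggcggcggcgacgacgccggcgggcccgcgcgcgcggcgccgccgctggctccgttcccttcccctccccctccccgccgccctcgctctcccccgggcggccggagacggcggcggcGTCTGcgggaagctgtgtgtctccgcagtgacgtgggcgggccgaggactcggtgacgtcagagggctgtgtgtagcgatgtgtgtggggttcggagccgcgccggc
SMAD7, chr18:48950966-48951215, minus strand: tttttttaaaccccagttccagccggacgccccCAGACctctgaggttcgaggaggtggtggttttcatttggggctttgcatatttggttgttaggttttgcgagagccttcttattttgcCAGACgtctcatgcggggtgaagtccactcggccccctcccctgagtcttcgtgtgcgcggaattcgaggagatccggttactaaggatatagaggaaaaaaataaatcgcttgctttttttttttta

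The motif CAGAC was found on either strand 0 times in the TGFBI window, 1 time in the SKIL window and 2 times in the SMAD7 window. The other SMAD7 start sites held 1 and 0 matches. Over 35116 promoters of the same length, 38% held the motif at least once. GTCTAGAC was in no window of the 9 genes and in 0.1823% of all promoters. A match in such a window is a description of its letters alone.

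The labelled cell type, mammary epithelium, was checked against its markers. All 5 epithelial markers (EPCAM, CDH1, KRT8, KRT18 and KRT19) were above background on all 24 arrays. Of the 5 basal markers, KRT17 and TP63 had no probe matched here. The basal keratin KRT5 was above background on all 24 arrays, ITGA6, by its brightest probe, on 4 and KRT14 on 0. Of the endothelial list 3 of 4 genes were never above background. Of the immune list 3 of 5 genes were never above it, while CD14 and CD68 were above it on every array. Of the luminal list, 4 of 5 genes were above background on all 24 arrays. Of the fibroblast list, 2 of 8 genes were never above background, while THY1 was above it on all 24. The mean log2 level of the fibroblast list ran from 6.66 to 6.80 in control arrays and from 6.76 to 6.98 in exon 1 arrays. It ran from 6.56 to 6.76 with exon 7 and from 6.75 to 6.86 with exon 9. The part of these cell-type markers in the results below was not tested. Between 34.2% and 39.5% of probes were above background on each array, and no 2 arrays correlated above 0.989 over all probes.

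All levels are normalized log2 intensities, so a difference of 1 is a doubling on that scale, and levels are compared only within a probe. An array probe was called above background when it exceeded 95% of 437 probes of olfactory receptor genes on that array. Differences were tested with limma over all 19395 probes, adjusted by the Benjamini-Hochberg method, and called at an adjusted p below 0.05. A second fit took the replicate number as a block, and is given where it changes the call of a member or the counts of a list named below.

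TGFBI rose with the exon 1 siRNA and was the only one of the 10 tested probes past the threshold against control without the block. In control arrays its lowest, median and highest log2 levels were 12.32, 12.51 and 12.74. With the exon 1 siRNA they were 12.65, 12.93 and 13.23. With the exon 7 siRNA they were 12.24, 12.40 and 12.68, and with the exon 9 siRNA 12.42, 12.63 and 12.78. The groups overlapped at their edges, where the lowest exon 1 array lay below the highest array of each other group, and 5 of the 6 exon 1 arrays lay above every array of the other groups.

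The TGFBI mean was 12.94 ± 0.19 (SD, n = 6) with the exon 1 siRNA and 12.50 ± 0.14 (SD, n = 6) with control. The log2 difference was 0.44 ± 0.10 (SE), with a 95% interval of 0.23 to 0.64 and an adjusted p of 0.00702, which is a 1.35-fold rise. Within replicate numbers the difference was positive in 6 of 6 and ran from 0.20 to 0.71. It was 0.71 in replicate 1, 0.50 in replicate 2, 0.25 in replicate 3, 0.40 in replicate 4, 0.20 in replicate 5 and 0.56 in replicate 6. The rise was present in every experiment and differed in size between them.

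The exon 7 and exon 9 siRNAs gave no TGFBI call. The log2 difference from control was -0.06 with exon 7 (95% interval -0.27 to 0.14, adjusted p = 0.937) and 0.10 with exon 9 (-0.10 to 0.31, adjusted p = 0.778). From the highest mean to the lowest, TGFBI was ordered exon 1, exon 9, control and exon 7, and the last 3 did not differ beyond their spread (adjusted p = 0.530 between exon 7 and exon 9). The difference between siRNAs was tested directly. TGFBI was 0.50 ± 0.10 (SE) higher with exon 1 than with exon 7 (adjusted p = 0.00218, 6 of 6 replicates).

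Against exon 9 the exon 1 siRNA left TGFBI 0.34 ± 0.10 (SE) higher, in 6 of 6 replicates, with an adjusted p of 0.0466. That call lies at the threshold. It was lost with experiment 3 left out (0.36, adjusted p = 0.0988), with median scaling (0.31, adjusted p = 0.175) and with 16 of 24 single arrays left out, where the adjusted p reached 0.132 without exon 1 replicate 1. The comparisons between siRNAs reuse the same exon 1 arrays, and those against control reuse the same control arrays, so they do not support each other independently.

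**Figure D1:**
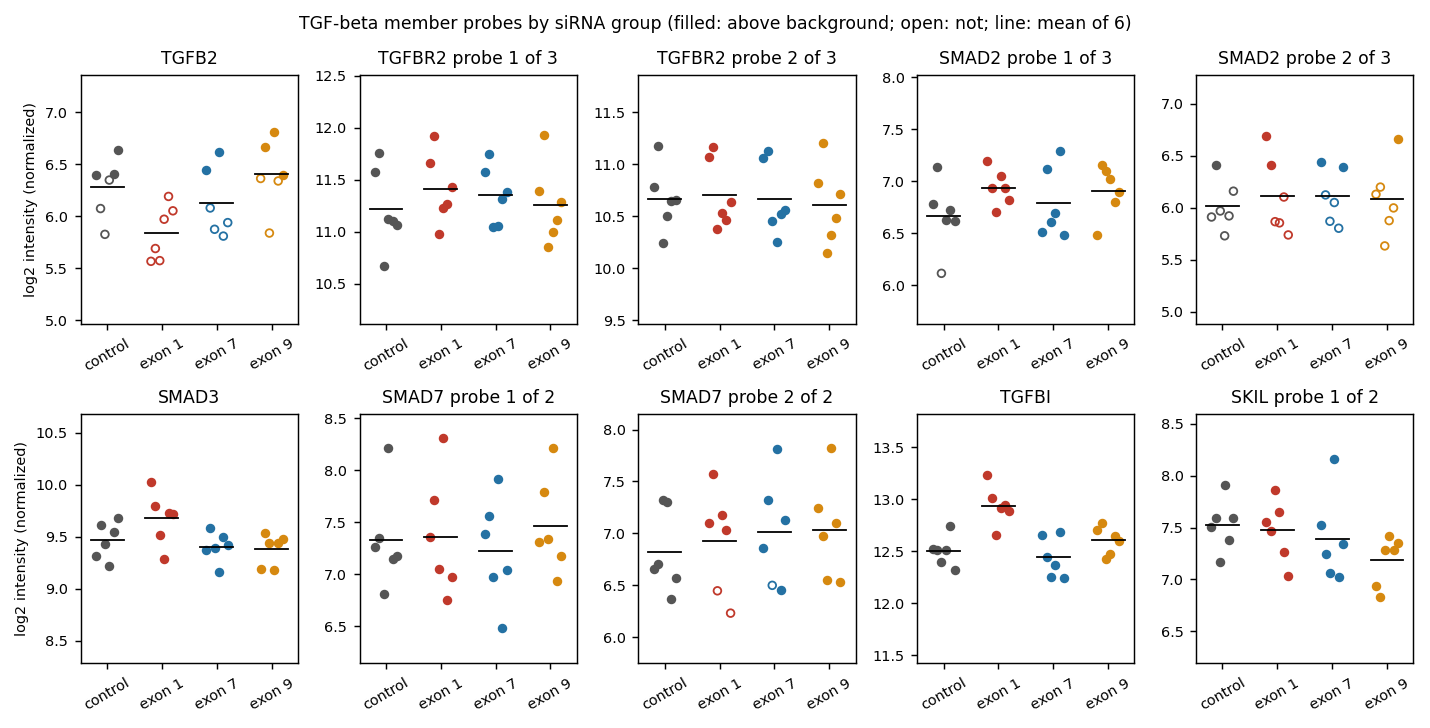
Normalized log2 intensity of the 10 tested probes by siRNA group, with 1 point per array, filled where the probe was above background and open where it was not, and a line at the mean of 6 arrays; every panel spans the same log2 range. TGFBI is highest in the exon 1 group (12.65 to 13.23), and all 6 exon 1 points of TGFB2 are open.

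Among the ligands, TGFB1, the prototype of the family, was not measured above background. Its probe was above background on 0 of 24 arrays, at log2 levels of 5.08 to 5.45, and it was not tested. TGFB2, a second ligand of the same receptors, was measured at the edge of detection, on 8 of 24 arrays. It was above background on 3 control arrays, 0 exon 1 arrays, 2 exon 7 arrays and 3 exon 9 arrays.

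The lowest, median and highest TGFB2 levels were 5.83, 6.37 and 6.63 in control arrays. In the exon 1 arrays they were 5.57, 5.83 and 6.19. They were 5.81, 6.01 and 6.62 with exon 7, and 5.84, 6.38 and 6.81 with exon 9. The groups overlapped, and since all 6 exon 1 arrays and 3 of the 6 control arrays were below background, their values there have no order.

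Since no exon 1 array measured TGFB2 above background, its level there is only a bound. The fitted log2 difference from control was -0.44 ± 0.17 (SE, adjusted p = 0.127) without the block and passed with it (adjusted p = 0.0405). Set against the detection limit of each array, the control mean gave no fold. Against exon 9 the fitted difference was -0.56 ± 0.17 (SE, adjusted p = 0.0492). Exon 9 measured TGFB2 on 3 of 6 arrays, so no fold is given. That call was lost with experiment 3 left out (adjusted p = 0.210), with no detection filter (0.0995) and with 18 of 24 single arrays left out, where the adjusted p reached 0.122 without exon 1 replicate 1.

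The receptors differed in how far they were measured. The TGFBR1 probe was above background on 0 of 24 arrays, with group medians of 5.30 to 5.35 on the log2 scale, and was not tested. TGFBR2 had 3 probes, of which probes 1 and 2 were above background on all 24 arrays and probe 3 on 4 of 24. Probe 1 had lowest, median and highest levels of 10.67, 11.11 and 11.76 in control arrays and of 10.98, 11.35 and 11.92 in exon 1 arrays. Its ranges with exon 7 (11.05 to 11.75) and exon 9 (10.86 to 11.93) overlapped both.

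TGFBR2 did not pass the test under any siRNA. With exon 1, probe 1 differed from control by 0.20 ± 0.19 (SE, adjusted p = 0.645), in 6 of 6 replicates, and probe 2 by 0.04 ± 0.19 (SE, adjusted p = 0.944), in 3 of 6. The replicate block left probe 1 above the threshold (adjusted p = 0.0541), and the replicate block with the column set brought it below (0.0212). With the replicate block the 95% interval ran from 0.06 to 0.34 for probe 1 and from -0.11 to 0.19 for probe 2. These intervals overlap, and whether the probes differ in size was not tested.

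TGFBR2 changed far more between experiments than between siRNAs. The replicate number held 88.6% of the variation of probe 1 and 90.7% of that of probe 2, against a median of 26.6% over all tested probes. The siRNA group held 5.66% and 1.15%. On probe 1 the mean of the 4 arrays was highest in replicate 2, which is experiment 3 (11.84 ± 0.10, SD, n = 4), and lowest in replicate 3, which is experiment 7 (10.89 ± 0.16, SD, n = 4). On probe 2 the same numbers were highest (11.17) and lowest (10.31). Both probes put each experiment at a like place, whichever siRNA was used.

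**Figure D2:**
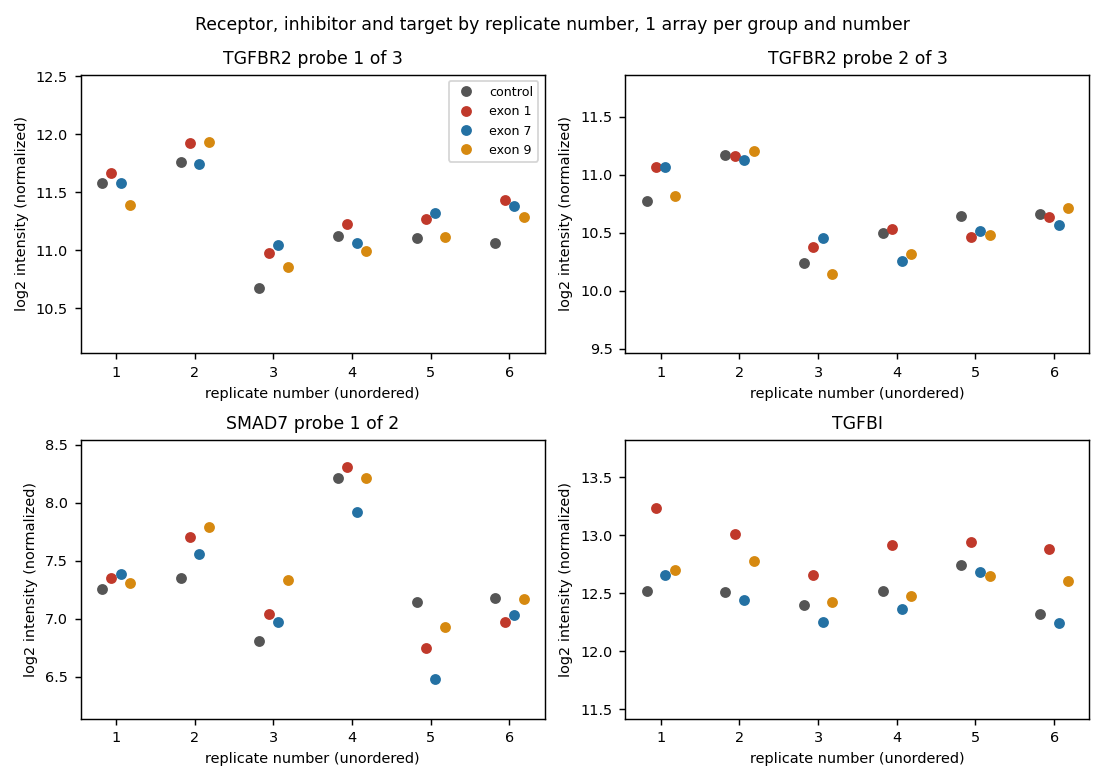
Normalized log2 intensity of 2 TGFBR2 probes, SMAD7 probe 1 and TGFBI against the replicate number, which has no order, with 1 point per siRNA group. The 4 groups move together for TGFBR2 (11.84 in replicate 2 and 10.89 in replicate 3 on probe 1) and for SMAD7, while the exon 1 points of TGFBI stand above the others in each number.

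Of the receptor-regulated SMADs, SMAD3 was well measured, with its probe above background on all 24 arrays. Its lowest, median and highest levels were 9.22, 9.48 and 9.68 in control arrays. With exon 1 they were 9.28, 9.72 and 10.03. With exon 7 they were 9.16, 9.41 and 9.58, and with exon 9 they were 9.18, 9.44 and 9.54. All groups overlapped, and the exon 1 array was the highest of its replicate number in each of the 6 numbers.

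The SMAD3 difference between exon 1 and control was 0.21 ± 0.11 (SE, adjusted p = 0.288), with 6 of 6 replicates higher, and it did not pass with the block (adjusted p = 0.0907). Against exon 7 it was 0.27 ± 0.11 (SE, adjusted p = 0.135), and against exon 9 0.30 ± 0.11 (SE, adjusted p = 0.116). Both passed with the replicate block (adjusted p = 0.0276 and 0.0191). Replicate 1 gave the largest difference from control, 0.72, and the other 5 numbers lay between 0.04 and 0.19. Both also passed without the block when exon 1 replicate 4, its lowest exon 1 array, was left out (adjusted p = 0.0377 and 0.0326). The order of the means was exon 1, control, exon 7 and exon 9, and the last 3 did not differ beyond their spread.

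SMAD2, the partner of SMAD3, had 3 probes. Probe 1 was above background on 23 of 24 arrays, probe 2 on 6 and probe 3 on 0. On probe 1 the lowest, median and highest levels were 6.11, 6.68 and 7.14 in control arrays and 6.70, 6.94 and 7.19 in exon 1 arrays. Its ranges were 6.49 to 7.29 with exon 7 and 6.49 to 7.16 with exon 9, so all groups overlapped. The log2 differences from control were 0.27 ± 0.15 (SE, adjusted p = 0.362) with exon 1, 0.12 ± 0.15 (SE, adjusted p = 0.913) with exon 7 and 0.24 ± 0.15 (SE, adjusted p = 0.570) with exon 9. Probe 2, near background, differed from control by 0.07 to 0.10 under the 3 siRNAs.

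The inhibitors gave no call in any of the 6 comparisons. SMAD7 probe 1, above background on all 24 arrays, had lowest, median and highest levels of 6.81, 7.22 and 8.21 in control arrays and of 6.75, 7.20 and 8.31 in exon 1 arrays. The ranges were 6.48 to 7.92 with exon 7 and 6.93 to 8.22 with exon 9. The differences from control were 0.03 (95% interval -0.53 to 0.59), -0.10 (-0.66 to 0.46) and 0.13 (-0.42 to 0.69) with exon 1, exon 7 and exon 9.

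SMAD7 probe 1 also varied mostly between experiments. The replicate number held 88.2% of the variation of probe 1 and the siRNA group 3.16%. The mean of the 4 arrays was 8.16 ± 0.17 (SD, n = 4) in replicate 4, which is experiment 9, and 6.83 ± 0.28 (SD, n = 4) in replicate 5, which is experiment 11. With the replicate block the 95% intervals narrowed, to between -0.18 and 0.24 for exon 1, between -0.31 and 0.11 for exon 7 and between -0.07 and 0.34 for exon 9, and no difference passed. Probe 2 of SMAD7, above background on 21 of 24 arrays, was also highest in replicate 4 (7.53), but was lowest in replicate 6 (6.62), and the replicate number held 50.0% of its variation. It differed between the column sets of the deposited table, meaning its first and last 12 array columns, with means of 6.73 and 7.17.

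The repressor SKIL had its probe 1 above background on all 24 arrays and its probe 2 on 2. Probe 1 had lowest, median and highest levels of 7.17, 7.55 and 7.91 in control arrays. They were 7.03, 7.51 and 7.86 with exon 1, 7.03, 7.29 and 8.16 with exon 7, and 6.83, 7.28 and 7.42 with exon 9. The exon 9 arrays lay lowest and overlapped control. Their difference from control was -0.34 ± 0.17 (SE, adjusted p = 0.402), with 1 of 6 replicates higher, and with exon 1 it was -0.05 ± 0.17 (SE, adjusted p = 0.919).

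**Figure D3:**
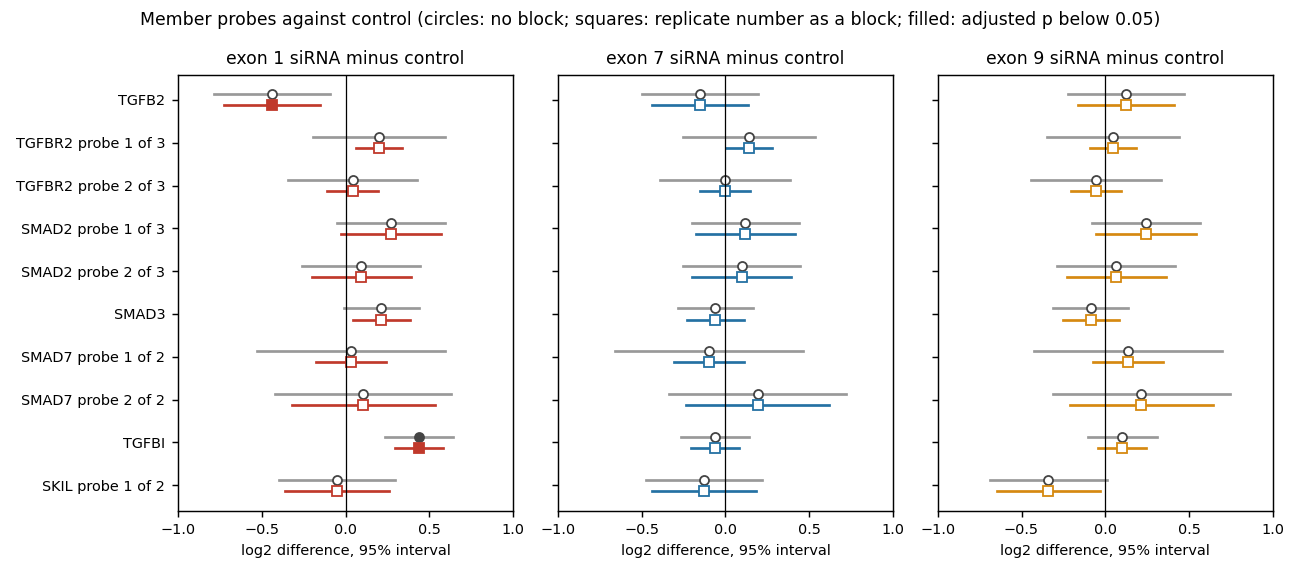
Log2 difference of each tested probe from control under the exon 1, exon 7 and exon 9 siRNAs, with 95% intervals, from the fit without a block (circles) and with the replicate number as a block (squares), filled where the adjusted p is below 0.05. TGFBI (0.44) is filled in both fits for exon 1 and TGFB2 (-0.44, a bound in the exon 1 arrays) with the block alone; no other symbol is filled.

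Counted together, 1 of the 10 member probes was called with exon 1 against control, where 6.96% of all tested probes were called. It was 0 of 10 with exon 7 (1.17% of all) and 0 of 10 with exon 9 (2.34% of all). At an unadjusted p below 0.05 in limma, 2 member probes passed with exon 1 (TGFBI and TGFB2), beside 3729 of all 19395 probes. With exon 7 and exon 9 it was 0 each, beside 1954 and 2517 of all probes. Between siRNAs the called counts were 1 of 10 for exon 1 against exon 7 (7.91% of all) and 2 of 10 for exon 1 against exon 9 (5.52%). For exon 7 against exon 9 it was 0 of 10 (2.68%), and 0 at an unadjusted p below 0.05 in limma, beside 2575 of all probes. For exon 1 against control and against exon 7 the member share lay near that of all probes. TGFB2, 1 of the 2 calls for exon 1 against exon 9, was above background on 0 exon 1 arrays. It passed the detection filter through the other groups alone, so that call is counted here but lends no support.

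With the replicate block, 2 of 10 member probes were called for exon 1 against control (12.7% of all probes), 2 for exon 1 against exon 7 (14%) and 3 for exon 1 against exon 9 (11.3%). TGFB2, whose exon 1 level is only a bound, is among those called against control and against exon 9. Against control, 0 member probes were called with exon 7 (3.02% of all probes) and 0 with exon 9 (5.75%). At an unadjusted p below 0.05 in limma it was 1 member probe each, beside 2864 and 3494 of all 19395 probes. The median log2 difference of the 10 member probes from control was 0.10 with exon 1, -0.03 with exon 7 and 0.08 with exon 9, beside 0.00 over all tested probes in each.

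The members divided by what held their variation. The siRNA group held most for TGFBI (61.6%, with 26.8% for the replicate number), and for SMAD3 it held 32.3%, with 42.5% for the replicate number. TGFB2 was above background on 8 of 24 arrays and on 0 exon 1 arrays. Its shares (36.2% and 32.2%) rest mostly on values below background, and nothing is read from them. The replicate number held over 88% for both TGFBR2 probes and SMAD7 probe 1. Over all tested probes the median shares were 17.4% for the group, 26.6% for the replicate number and 4.63% for the column set. TGFBI also held 0.42 and 0.46 as its exon 1 difference in the column sets taken alone, with 3 arrays per group (adjusted p = 0.250 and 0.151).

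**Figure D4:**
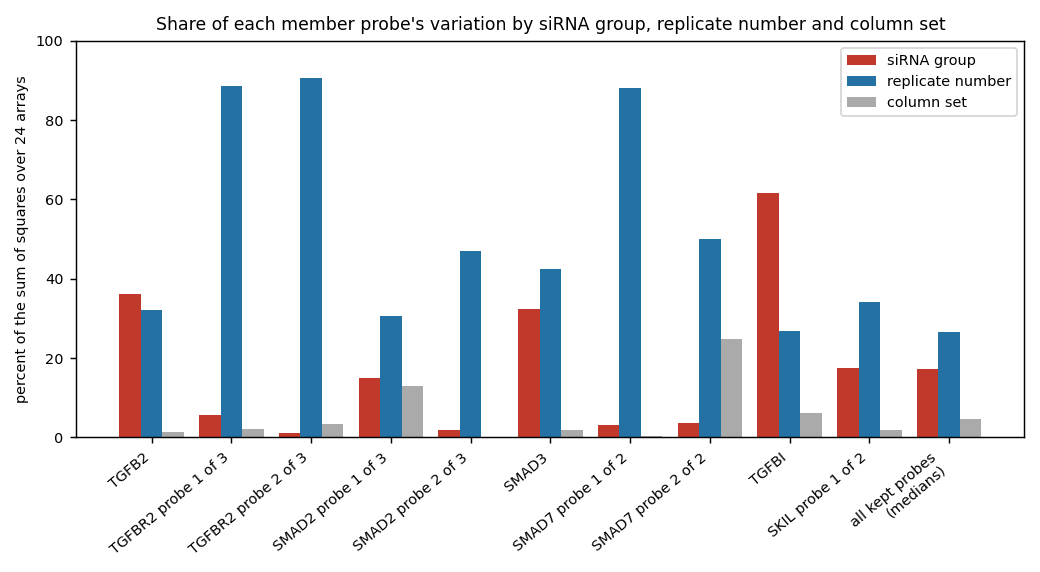
Percent of the sum of squares over 24 arrays that lies between siRNA groups, between replicate numbers and between column sets, for each tested member probe and as the median over all tested probes. The bars of TGFBI are highest for the group (61.6%), and those of TGFBR2 and SMAD7 probe 1 for the replicate number (88.2% to 90.7%).

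The probes whose centred profiles over the 24 arrays were most like TGFBI were those of CHN1, LACTB and TPRG1L, among 14548 named probes. Their root-mean-square difference from TGFBI was 0.122, 0.129 and 0.133 in log2 units, where the median over all named probes was 0.331 and TGFBI itself varied by 0.246 about its mean. CHN1, a protein that switches off the small GTPase Rac, differed from control by 0.38 with exon 1, TPRG1L by 0.42 and LACTB, a mitochondrial protein, by 0.28. These values follow from the choice by likeness over the same arrays and are a description.

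Of 75 other genes of the pathway, 72 were matched to a probe used here and 50 passed the detection filter. Their lists, like the members, were chosen with earlier results of these data known. With the exon 1 siRNA 6 were higher and 2 lower than control, where 6.96% of all probes were called, and 35 of the 50 lay above 0, with a median log2 difference of 0.21 beside 0.00 over all probes. With exon 7 none of the 50 was called (1.17% of all probes). At an unadjusted p below 0.05 in limma, 6 of them passed with exon 7, beside 1954 of all 19395 probes. With exon 9, 3 were higher and 0 lower (2.34% of all probes called). The replicate block gave 15 higher and 2 lower with exon 1 (12.7% of all probes called), 1 higher and 2 lower with exon 7 (3.02%), and 6 higher and 4 lower with exon 9 (5.75%). Leaving out control replicate 4 took the exon 1 count from 8 to 13, and leaving out experiment 3 gave 5 higher and 2 lower. Over all probes the exon 1 calls, 1350 in the main fit, ran from 955 to 1619 with 1 array left out.

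Of 23 listed targets of the pathway, 19 were tested. With exon 1, 4 rose and 0 fell, where 6.96% of all probes were called, and 16 lay above 0, with a median log2 difference of 0.34. SNAI2, a transcription factor of mesenchymal change, went from 9.77 ± 0.16 (SD, n = 6) to 10.43 ± 0.21 (SD, n = 6), a difference of 0.66 ± 0.10 (SE, adjusted p = 0.000167). ADAM19, a membrane-bound protease, differed by 0.94 ± 0.15 (SE, adjusted p = 0.000288), and TAGLN, an actin-binding protein, by 1.04 ± 0.20 (SE, adjusted p = 0.0019). The fourth was ID3, an inhibitor of helix-loop-helix factors, at 0.35 ± 0.09 (SE, adjusted p = 0.0184). All 4 were higher in 6 of 6 replicates. The fibroblast markers, whose mean level was slightly higher in exon 1 and exon 9 arrays (above), include COL1A1, itself a listed target. Of their 4 tested genes 0 passed against control with exon 1. Against exon 7, 1 of these 4 was higher with exon 1 (list median 0.43, 7.91% of all probes called), and 2 with the block (14%). Against exon 9, 1 was higher with exon 1 (5.52%), and with exon 7 1 was lower than control (1.17%).

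With the replicate block 9 of the 19 targets were higher and 0 lower with exon 1 (12.7% of all probes called). Those added included CDKN1A, which halts the cell cycle (0.59, adjusted p = 0.0629 without and 0.000247 with the block), IGFBP3, which binds insulin-like growth factors (0.81, adjusted p = 0.0814 and 0.000367), and JUNB, an AP-1 subunit (0.70, adjusted p = 0.143 and 0.00167). The exon 7 siRNA called none of the targets (1.17% of all probes called), with a median of -0.06. With the block it gave 1 higher and 1 lower (3.02% of all), CDKN1A at 0.49 and CDKN2B at -0.40. The exon 9 siRNA called SNAI2 alone (0.50 ± 0.10, SE, adjusted p = 0.00661, 2.34% of all probes called), with a median of 0.06. With the block the exon 9 targets gave 2 higher, SNAI2 and TAGLN (0.71), and 3 lower (5.75% of all). The lower ones were BHLHE40 (-0.36), SPHK1 (-0.39) and TGM2 (-0.32). Between siRNAs, 5 of 19 targets were higher with exon 1 than with exon 7 (7.91% of all probes called) and 1 of 19 higher than with exon 9 (5.52%), with none lower. With the block these counts were 11 (14%) and 7 (11.3%), with none lower. For exon 7 against exon 9, 0 of the 19 targets were higher and 3 lower (2.68%), and 1 and 4 with the block (5.97%). Over the 50 tested genes of all lists, exon 7 against exon 9 gave 1 higher and 3 lower, and 2 higher and 11 lower with the block. FN1, a matrix protein, and SNAI1, a relative of SNAI2, did not pass the filter.

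Among the other SMADs and regulators, 16 of 20 were tested, and with exon 1 2 fell and 0 rose (6.96% of all probes called). WWP1, a ubiquitin ligase reported to act on TGF-beta receptors and SMADs, fell from 10.39 ± 0.08 (SD, n = 6) to 9.07 ± 0.35 (SD, n = 6), a difference of -1.32 ± 0.12 (SE, adjusted p = 1.3e-07). PPM1A, a phosphatase of SMAD2 and SMAD3, differed by -0.71 ± 0.18 (SE, adjusted p = 0.0137), while its other kept probes gave -0.43 and -0.02. PMEPA1, a target that restrains SMAD signalling, differed by 0.68 (adjusted p = 0.0803 without and 0.000134 with the block). With exon 7 it was lower than control with the block alone (-0.38, adjusted p = 0.646 without and 0.0391 with it). Between exon 1 and exon 7, 2 of the 16 were higher with exon 1 and 1 was lower (7.91% of all probes called). PMEPA1 was 1.06 higher with exon 1 (adjusted p = 0.00459), and NEDD4L, a ligase for SMADs, was 1.05 higher (adjusted p = 0.0124). Against control NEDD4L passed with neither siRNA. It differed by 0.49 with exon 1 (adjusted p = 0.315 without and 0.0615 with the block). With exon 7 it differed by -0.56 (adjusted p = 0.460 and 0.0825).

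The receptor list gave 1 rise of 7 tested with exon 1 (6.96% of all probes called) and 2 of 7 with exon 9 (2.34%). ACVR1, a type I receptor that mainly serves BMPs and activins, was higher with exon 1 (0.52 ± 0.10, SE, adjusted p = 0.00188) and with exon 9 (0.46 ± 0.10, SE, adjusted p = 0.0123). ACVR1B, a type I receptor for activin, was higher with exon 9 (0.38 ± 0.10, SE, adjusted p = 0.0414), which stood at 0.33 with experiment 3 left out and no longer passed (adjusted p = 0.114). In the list of latency and activation 1 of 6 rose with exon 1 (6.96% of all probes called). It was FURIN, a protease that cleaves the TGF-beta precursor (0.53 ± 0.15, SE, adjusted p = 0.0259). FURIN stood at 0.49 with experiment 3 left out and no longer passed (adjusted p = 0.0693). With the replicate block BAMBI, a decoy receptor that was above background on 2 of 6 control arrays, also passed with exon 1 (0.74, adjusted p = 0.144 without and 0.000186 with the block), as did LTBP2, a matrix protein (0.38), and ITGAV, an integrin subunit of receptors that release latent TGF-beta (0.32), both of the latency and activation list. With exon 9 and the block BAMBI (0.47, adjusted p = 0.556 without and 0.0148 with the block) and the coreceptor TGFBR3 (0.27, adjusted p = 0.029 with it) were also higher, and THBS1, which can activate latent TGF-beta, was lower (-0.36, adjusted p = 0.0178 with it). Of the 9 other ligands 2 were tested, GDF11 and GDF15, and neither passed against control. GDF15 was higher with exon 1 than with exon 9 (0.44, adjusted p = 0.0241, 5.52% of all probes called). It was also higher with exon 7 than with exon 9 (0.49, adjusted p = 0.0224, 2.68% of all), a call lost with experiment 3 left out (adjusted p = 0.0612). Whether these short lists hold more calls than the array as a whole was not tested.

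**Figure D5:**
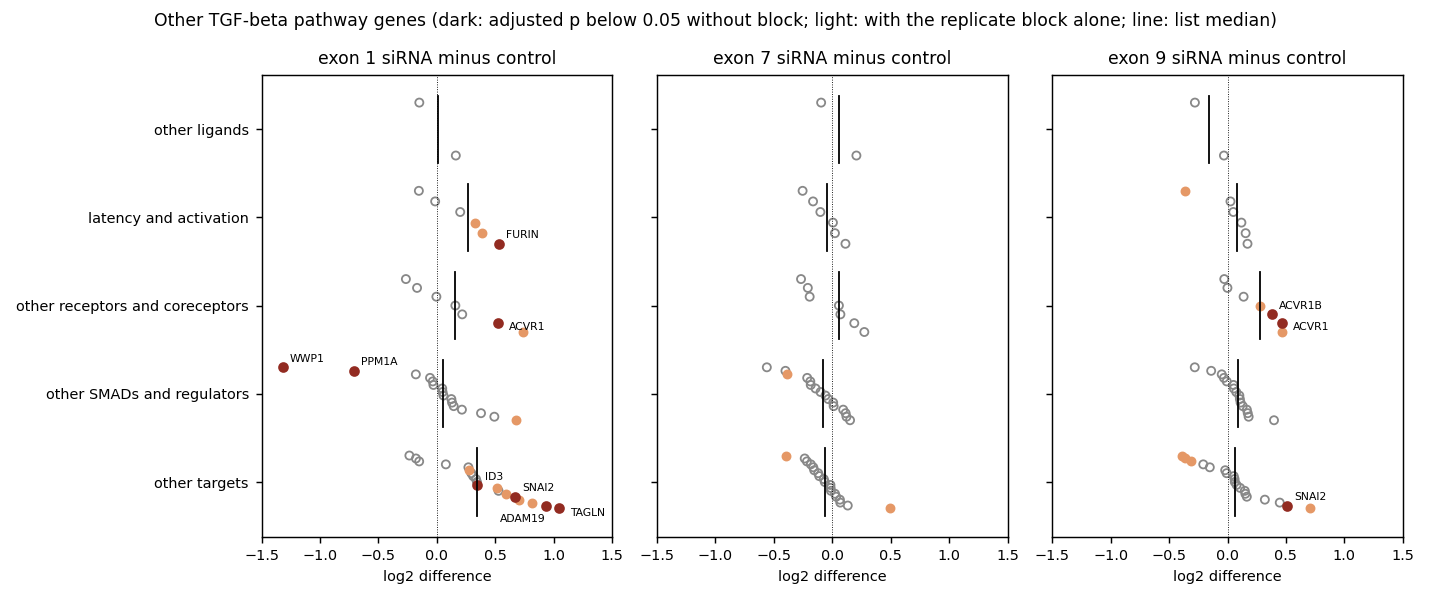
Log2 difference from control of 50 other pathway genes under each siRNA, by list, with dark points called without a block (named), light points called with the replicate block alone, open points not called, and a line at the list median. With exon 1 the targets lie to the right (median 0.34) and WWP1 lies farthest to the left (-1.32); with exon 7 no point is dark.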

How the data were processed

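Biotin-labelled RNA was read on Illumina bead arrays, per the labels' protocols. The deposited log2 intensities of the non-normalized table, 1 value per probe and array, were used, and the authors' normalized log2 values of the same arrays, which share 1 median, served as an alternative. For neither is a tool given in the sources used here. Linear intensities were corrected with limma's normexp (offset 16) using 437 probes of olfactory receptor genes in place of negative controls. They were then quantile normalized on the linear scale and turned into log2 values (limma 3.58.1, R 4.3.3). Probes with a surrogate p under 0.05 on 6 or more arrays were kept (19395 of 47228). Symbols came from GEO's annotation, with 30112 probes of 1 symbol, 8 of several and 17108 of none, and were updated to RefSeq names for 30073. Array number limits the precision.

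One mean per group was fitted over 24 arrays with lmFit and eBayes, with two-sided tests of 6 comparisons and adjusted p-values (Benjamini-Hochberg) over all kept probes, at 0.05. Pathway genes were represented by their brightest kept probe. The names in the text are every member, up to 3 genes of smallest adjusted p past the threshold in each list and siRNA, and the 3 probes most like a called member. ID3, PMEPA1, NEDD4L, CDKN1A, CDKN2B, IGFBP3, JUNB, BAMBI, LTBP2, ITGAV, TGFBR3, THBS1, GDF15, BHLHE40, SPHK1 and TGM2 were named after their values were seen. The members and lists were chosen with earlier results of these data known. A group below background on all its arrays gave only a bound, from the lowest signal above background on each array.

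Same-numbered arrays share an experiment number in the titles, so the numbers pair the samples. Their deviations from the group means correlated by 0.174 on average over 36 pairs (range -0.0626 to 0.505, 23 over 0.1), against -0.0346 for different numbers. The main fit leaves this pairing out, so its SEs and intervals include the spread between experiments. For TGFBR2 probe 1 with exon 1 against control the SE was 0.19 in the main fit and 0.07 with the replicate block. The steps were tested on simulated data. Alternatives were blocks for the replicate number and the column set, each column set alone, cyclic loess, median scaling, no background correction, the authors' normalized values, other detection filters, other rules for several probes, the 2 groups alone, 1 array left out at a time, and, added after seeing the data, experiment 3 left out.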

Additional observations from a re-analysis of the deposited data

Results flagged for a closer look

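Of 96 groups of 6 arrays checked with Dixon's ratio for a value far from the rest, 1 was past the critical value, and chance puts about 1 in 20 groups past it. It was TAGLN probe 1 of 3 with the exon 7 siRNA, where replicate 4 was the highest at a log2 level of 8.31 and the nearest array was at 7.65. The ratio of that gap to the range of the group was 0.632.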

How the results depend on the processing

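Over 15 alternative settings and 24 arrays left out in turn, 2215 of 2274 differences of member probes kept their side of the threshold, counting 104 uncalled differences whose sign changed. Another 50 lost a call, 9 gained one and no call reversed. The rise of TGFBI with exon 1 against control ran from 0.42 to 0.46 over the settings and was lost only in the column sets taken alone, which have 3 arrays per group. With the authors' normalized values it was 0.43 and stayed past the threshold.

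For exon 1 against control, the member probes called went from 1 to 0 in either column set alone, to 2 with the replicate block and to 3 with both blocks, and the pathway genes called from 8 to 3 and 2, 17 and 22. For exon 1 against exon 7 the member count went from 1 to 0 in either column set, 2 with the replicate block and 2 with both. For exon 1 against exon 9 it went from 2 to 0 with the 2 groups alone, in either column set, with experiment 3 left out, with median scaling and with no detection filter, and to 1 with the stricter filter. The pathway genes called with exon 7 went from 0 to 3 with the replicate block and 4 with both blocks. With exon 9 they went from 3 to 0 in either column set, 1 with median scaling, 10 with the replicate block, 11 with both and 6 with the stricter filter. Leaving out 1 array gave 1 to 1 member probes for exon 1 against control, 1 to 2 against exon 7 and 0 to 2 against exon 9, and 6 to 13 pathway genes with exon 1, 0 to 0 with exon 7 and 2 to 4 with exon 9. Calls over all probes moved over the same settings too. They ran from 81 to 3190 for exon 1 against control (1350 in the main fit), from 13 to 885 with exon 7 (227) and from 39 to 1561 with exon 9 (454). Between siRNAs they ran from 72 to 3510 for exon 1 against exon 7 (1535) and from 36 to 2916 against exon 9 (1071). Leaving out 1 array gave 955 to 1619 for exon 1 against control. Fewer arrays are the construction of the column sets. For the other settings the cause was not tested. Besides the calls named in the text as changed, the replicate block changed no call of a member probe. The detection limit bounds what can be said of TGFB1, TGFB2 and TGFBR1. TGFB2 is counted among the member calls for exon 1 against exon 9 and, with the replicate block, against control.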

Other observations

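CD14, a coreceptor for bacterial lipopolysaccharide on monocytes and some epithelia, was above background on all 24 arrays. Its mean log2 level was 10.95 in control, 10.15 with exon 1, 10.64 with exon 7 and 10.23 with exon 9. In limma it was lower than control by 0.80 with exon 1 (adjusted p = 0.00251) and by 0.72 with exon 9 (adjusted p = 0.0145). With exon 7 it passed with the replicate block alone (adjusted p = 0.565 without and 0.0400 with it).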
